A study of Rattus norvegicus with 38 samples.

Results

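The metallothioneins and their closest zinc partners were followed here as 6 genes taken by symbol from the deposited count and TPM tables of rat liver: Mt1, Mt2A, Mt3, Mtf1, Slc30a1 and Slc39a14. They are 6 of 31038 genes in the count table, and 5 of them, all but Mt3, passed the filter on low counts and are among the 14786 genes tested. The genes were chosen by name, selected on the rise in Mt2A CPM under the EF extract that was already known, so their levels with EF alone against control are given as a description, without a test. The study measured whole-liver RNA by paired-end sequencing in 38 livers of Sprague-Dawley rats in 8 groups, taken on day 28 and described by the submitters as biological replicates. The control group (n = 5) had neither LPS nor an extract. The groups EF (n = 5), EF_PF (n = 5) and EF_RD (n = 4) were gavaged with the EF extract at 2.5 g/kg alone, with the PF extract at 2.5 g/kg, or with the RD extract at 200 mg/kg. The group LPS (n = 5) was injected intraperitoneally with lipopolysaccharide, the bacterial cell-wall component that starts an acute-phase response in liver, and LPS_EF (n = 5), LPS_EF_PF (n = 4) and LPS_EF_RD (n = 5) had both the injection and the same gavage. The labels spell out neither EF, PF and RD nor the dose and timing of LPS, and no sex or age of the rats is stated. Libraries are named by group and by the number in the sample title, such as EF_RD 1, and every extract group without LPS was set against the same 5 control livers.

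Metallothioneins are small cysteine-rich proteins that bind zinc, copper and cadmium, and liver is one of their main sites of synthesis. Free zinc activates MTF-1, the zinc-finger factor encoded by Mtf1, which binds metal response elements in the promoters of Mt1, Mt2A and Slc30a1. Metallothionein genes are also known to respond to glucocorticoids, to oxidative stress and to interleukin-6. Slc30a1 encodes ZnT1, which exports zinc from the cell, and Slc39a14 encodes ZIP14, an importer of zinc, iron and manganese known as an acute-phase transporter of hepatocytes. Mt3 is best known from brain.

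In the rn6 annotation carried by the count table, Mt1 (chr19:11301991-11303007), Mt2A (chr19:11307966-11308740) and Mt3 (chr19:11324708-11326112) lie in a row on the minus strand, each with 3 exon blocks. Mt1 and Mt2A are separated by 4958 bp and Mt2A and Mt3 by 15967 bp, and beyond Mt3, after 13654 bp, comes Mt4, the metallothionein of squamous epithelia. No other gene of the table starts between them. The 250 bases before the annotated start of these 3 members are shown because Mt1 and Mt2A both rose with extract treatment while LPS raised Mt2A. They come from RefSeq on the GRCr8 assembly, read 5′ to 3′ on the gene's strand, and capitals mark the metal response element core, searched as TGCACNC or TGCGCNC on both strands.
Mt1: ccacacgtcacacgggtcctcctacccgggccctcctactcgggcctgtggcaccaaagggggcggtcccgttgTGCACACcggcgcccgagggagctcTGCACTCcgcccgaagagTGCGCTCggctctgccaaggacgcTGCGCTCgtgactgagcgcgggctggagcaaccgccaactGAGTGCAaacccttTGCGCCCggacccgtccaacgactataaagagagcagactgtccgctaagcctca
Mt2A: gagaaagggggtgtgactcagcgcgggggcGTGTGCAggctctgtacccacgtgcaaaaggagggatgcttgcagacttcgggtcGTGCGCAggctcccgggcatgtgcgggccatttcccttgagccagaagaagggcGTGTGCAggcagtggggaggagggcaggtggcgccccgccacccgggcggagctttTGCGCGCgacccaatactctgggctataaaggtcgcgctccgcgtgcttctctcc
Mt3: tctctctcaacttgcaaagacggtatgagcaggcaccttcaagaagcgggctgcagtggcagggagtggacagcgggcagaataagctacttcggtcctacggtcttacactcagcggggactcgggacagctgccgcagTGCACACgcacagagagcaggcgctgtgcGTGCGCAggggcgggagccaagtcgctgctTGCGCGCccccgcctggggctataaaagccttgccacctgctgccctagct
The window of Mt1 is chr19:10832976-10833225, that of Mt2A chr19:10838709-10838958 and that of Mt3 chr19:10856081-10856330, all on the minus strand.

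The Mt1 window held 6 cores, the Mt2A window 4 and the Mt3 window 3. At least 6 cores were found in 0.0269% of 33465 rat promoter windows of this length, at least 4 in 0.266% and at least 3 in 1.17%, while 20.6% held 1 or more. The Mtf1 and Slc30a1 windows held 2 cores each, as many or more of which were in 4.9% of windows. An antioxidant response element core, searched as TGACNNNGC on both strands, was found once in the windows of Mt1, Mt2A and Slc30a1, in 2 places in that of Mtf1 and in 10.1% of all windows. The STAT core TTCNNNGAA, present in 7.67% of all windows, was not in any of the 5 windows. Of the 6 members 5 were matched in the promoter table, and Slc39a14 was not. These are letter matches in a short window.

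Library totals ran from 19716622 to 35835012 read pairs assigned to genes. Labels name the cell type as hepatocyte and the tissue as liver: hepatocyte markers such as Alb were abundant in every library, but markers of Kupffer cells and macrophages were also present, at 186 to 1062 CPM (read pairs of a gene scaled to library size) summed over 8 genes, so the libraries are described as liver. In 4 libraries the acute-phase gene A2m went against the label. It was at 5.84 CPM in LPS_EF 7 and 6.90 CPM in LPS_EF_RD 6, against 84.2 to 344 CPM in the other 17 LPS-injected livers. It was at 17.2 CPM in EF 1 and 19.0 CPM in EF_RD 1, against 0.536 to 3.51 CPM in the other 17 livers without LPS. EF_RD 1 further held 3699 CPM of 8 skeletal muscle markers, with at most 322 CPM elsewhere, and exocrine pancreas markers reached 2981 CPM in control 5 and 1724 CPM in LPS 3. The values of Mt1 and Mt2A, the other calls and the means that rest on the libraries labelled EF 1, EF_RD 1, LPS_EF 7 and LPS_EF_RD 6 are therefore also given without these 4. Group means of the ratio of Mt2A to Mt1 are given only with them.

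Levels of different genes are compared on the TPM scale, which accounts for gene length. Over the 38 libraries the median was 698 TPM for Mt2A (67.3 to 3086) and 583 TPM for Mt1 (150 to 2857), and these ranges overlapped almost completely. Slc39a14 followed at 81.3 TPM (65.6 to 175), Slc30a1 at 36.5 TPM (22 to 44.7) and Mtf1 at 1.44 TPM (1.11 to 1.88). These 3 ranges did not overlap each other. In the control livers Mt1 stood at 265 ± 103 TPM (SD, n = 5) and Mt2A at 149 ± 82.0 TPM, and Mt1 was the higher of the 2 in each of the 5 livers. Among all 31038 genes Mt2A reached rank 45 by TPM in its highest library and Mt1 rank 47, with median ranks of 172.5 and 207.5. Together the 2 genes took from 0.00440% of the assigned read pairs in control 7 to 0.121% in EF_RD 1.

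**Figure D1:**
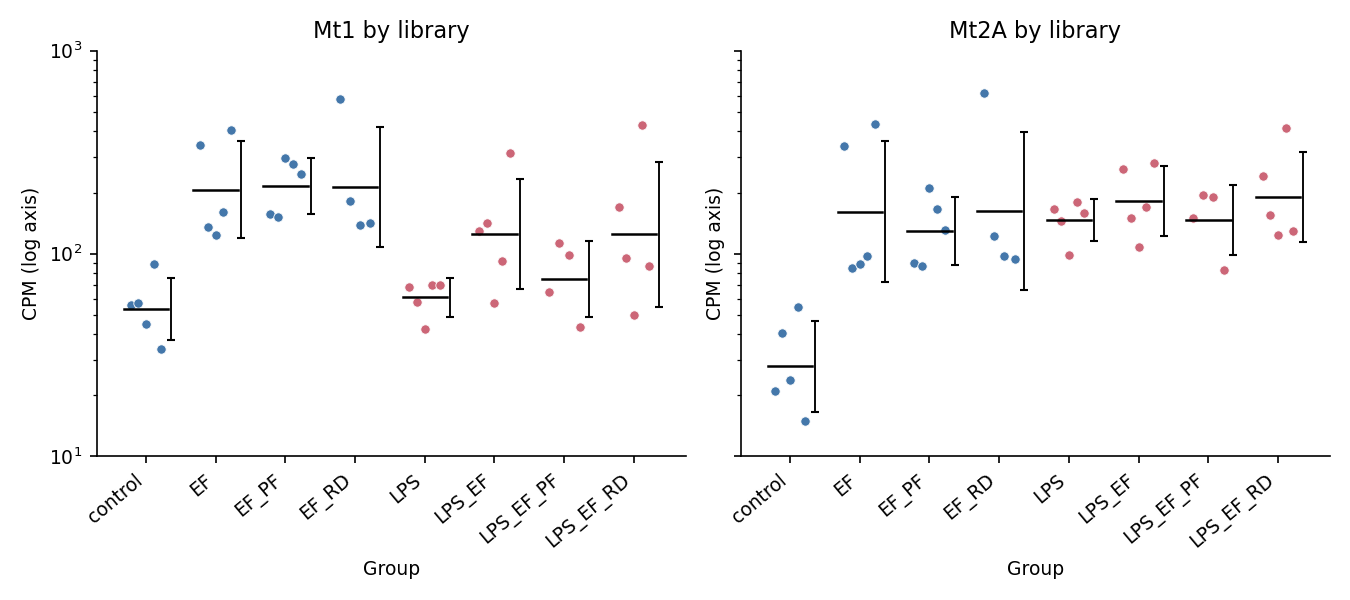
Level of Mt1 (left) and Mt2A (right) in each library, in CPM on a log axis, by group; each point is a liver, blue without and red with LPS, black lines are geometric means and bars 1 SD of the log2 values. Mt1 is near 60 CPM in both the control and the LPS group, whereas Mt2A is low in the control group only.

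All 3 extract treatments without LPS went with higher Mt1 and Mt2A. EF_PF and EF_RD against control share the control livers on which the genes were chosen, and both gavages contain EF. Their direction and calls are therefore no independent observation. In the 5 control livers Mt1 was measured at 56.1, 57.1, 45.1, 88.7 and 33.9 CPM, and Mt2A at 21.0, 40.6, 23.8, 54.5 and 15 CPM. With EF alone, Mt1 was at 341, 136, 123, 160 and 406 CPM and Mt2A at 339, 84.6, 88.9, 97.6 and 433 CPM, so that EF 1 and EF 5 stood well above the other 3 livers. The acute-phase gene Lbp was also higher in these livers, at 423 CPM in EF 1 and 334 CPM in EF 5, against 111 to 132 CPM in the other EF livers and 102 to 160 CPM in control livers, and its part in the metallothionein levels was not tested. Every EF liver was above every control liver for both genes, a separation in either direction that 1.8% of all genes tested showed. The fitted log2 difference was 2.05 ± 0.49 (SE) for Mt1 and 2.75 ± 0.52 for Mt2A. In that comparison 0.92% of all genes, the members included, passed the threshold used throughout. That threshold is a Benjamini-Hochberg adjusted p under 0.05 in edgeR's quasi-likelihood test over all 14786 genes. No count of called members is given there, because they were chosen with this result in view.

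With EF_PF the spread was smaller than with EF, at an SD of 67.3 against 131 CPM for Mt1, a difference that was not tested. Mt1 was at 156, 152, 294, 277 and 246 CPM and Mt2A at 90.1, 86.9, 211, 166 and 131 CPM, again all above the control range (3.6% of all genes did not overlap). Mt1 rose by 2.0 ± 0.49 on the log2 scale (adjusted p = 0.0466) and Mt2A by 2.14 ± 0.51 (adjusted p = 0.0369). These were 2 of the 5 tested members, where 0.622% of all genes passed. Both calls lay close to the threshold: both were lost without the filter on low counts, at adjusted p = 0.0613 for Mt1 and 0.0508 for Mt2A. They were also lost when control 3, control 4, control 5, control 7, EF_PF 3, EF_PF 5 or EF_PF 6 was left out, with the highest adjusted p at 0.109 for Mt1 and 0.0995 for Mt2A without control 7. The Mt1 call was lost as well without EF_PF 1 (adjusted p = 0.0557) or EF_PF 2 (adjusted p = 0.0567).

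With EF_RD, Mt1 was at 580, 182, 138 and 141 CPM and Mt2A at 617, 123, 97.1 and 94.0 CPM. The library EF_RD 1 was far above its group for both genes, and the other 3 livers still lay above all 5 controls (5.82% of all genes did not overlap). Mt1 rose by 2.21 ± 0.51 (adjusted p = 0.0221) and Mt2A by 2.91 ± 0.54 (adjusted p = 0.00550), 2 of 5 tested members where 1.52% of all genes passed. EF_RD 1 is the library with skeletal muscle RNA and raised A2m. Of the 8 muscle markers 4 passed the low-count filter, and all 4 were higher in this comparison. Without EF_RD 1 the log2 differences were 1.45 for Mt1 (adjusted p = 0.198) and 1.75 for Mt2A (adjusted p = 0.0913), and neither was called. The Mt1 call was also lost without control 3 (adjusted p = 0.0598) or control 7 (adjusted p = 0.0605), and both calls were lost when the 2 groups were fitted alone (adjusted p = 0.0913 for Mt1 and 0.104 for Mt2A). Without all 4 libraries whose A2m goes against the label, Mt1 differed by 1.45 ± 0.37 (adjusted p = 0.0551) and Mt2A by 1.76 ± 0.44 (adjusted p = 0.0464). In EF the same omission left 1.88 for Mt1 and 2.51 for Mt2A. It kept EF 5, at 433 CPM for Mt2A, and Mt2A in EF then averaged 176 ± 172 CPM (SD, n = 4).

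No member was called between the extracts' combinations and EF, and EF is the group on which the genes were chosen. Mt2A differed by -0.61 in EF_PF against EF, with a 95% interval of -1.57 to 0.35. In EF_RD against EF it differed by 0.16, with an interval of -0.86 to 1.17. Intervals this wide do not show that the levels were alike. EF_PF against EF and EF_RD against EF called 0 of 5 tested members with edgeR, where 0.162% and 0.724% of all genes passed, and DESeq2 also called 0. At an unadjusted p under 0.05 there was 1 member in the first, Slc39a14, and 0 in the second.

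LPS alone raised Mt2A, and Mt1 did not pass the test. This comparison too shares the control livers on which the genes were chosen. In LPS-injected livers without extract Mt1 was at 68.4, 58.0, 42.4, 70.2 and 70.1 CPM, within the control range. Mt2A was at 166, 144, 98.5, 180 and 158 CPM, so the lowest LPS liver lay above the highest control liver, at 54.5 CPM, and 25% of all genes likewise did not overlap. Mt2A rose by 2.27 ± 0.51 on the log2 scale, 4.82-fold (adjusted p = 0.000905), while Mt1 differed by 0.14 ± 0.48 (adjusted p = 0.845), with a 95% interval of -0.80 to 1.07. Mt2A and Mtf1 were the 2 members called of 5 tested, against 36.8% of all genes. Mt2A passed in every alternative run for it, at log2 differences of 2.09 to 2.57 when any 1 library of the 2 groups was left out, control 5 and LPS 3 with their pancreatic RNA included. In the same comparison 7 of 7 tested markers of neutrophils and monocytes (of 8 listed; Ly6g6c was too low to test) were higher, their sum going from 4.84 to 16.6 CPM in control livers to 101 to 145 CPM in LPS livers. Of the 8 hepatocyte markers 6 were lower, with sums of 179267 to 217696 CPM in control and 130825 to 161633 CPM in LPS livers. Their part in the members' levels was not tested, and in bulk tissue fewer cells of a type and less RNA per cell cannot be told apart.

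The ratio of Mt2A to Mt1 within a library, on the TPM scale, sets the 2 genes side by side liver by liver. It is a description, with no test. The ratio was 0.381, 0.722, 0.537, 0.623 and 0.447 in the control livers and 2.47, 2.52, 2.36, 2.61 and 2.29 in the LPS livers. With extract alone it stayed low, with group means of 0.815 ± 0.217 in EF (SD, n = 5), 0.609 ± 0.0706 in EF_PF (n = 5) and 0.789 ± 0.195 in EF_RD (n = 4). Under LPS it was 1.57 ± 0.533 in LPS_EF (n = 5), 2.0 ± 0.259 in LPS_EF_PF (n = 4) and 1.62 ± 0.562 in LPS_EF_RD (n = 5), against 2.45 ± 0.128 in LPS alone (n = 5). These group means include the 4 libraries whose A2m goes against the label. LPS_EF 7 and LPS_EF_RD 6, which are among them, had the lowest ratios of their groups. Mt2A exceeded Mt1 in 17 of 19 livers with LPS and in 3 of 19 without. The exceptions with LPS were LPS_EF 7 (0.903) and LPS_EF_RD 6 (0.980), and those without were EF 1 (1.01), EF 5 (1.08) and EF_RD 1 (1.08). Of these 5 libraries, 4 are the ones whose A2m goes against the label. Leaving those 4 out, the ratio was above 1 in 17 of 17 livers with LPS, from 1.08 in LPS_EF 4 upward, and in 1 of 17 without, EF 5. The counting settings left out read pairs that map to several copies, so the absolute levels of Mt1 and Mt2A, which are close relatives, are less certain than those of the other members.

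**Figure D2:**
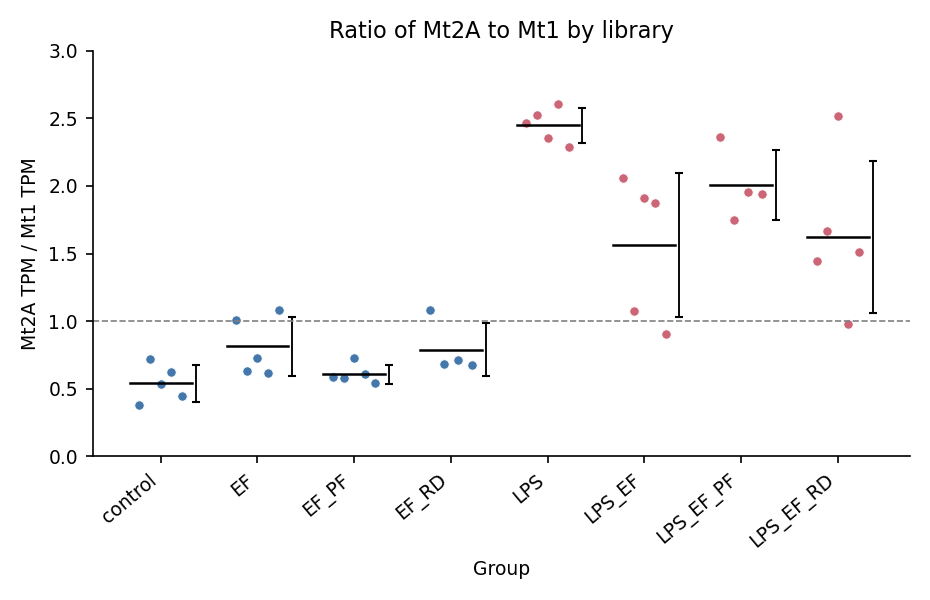
Ratio of Mt2A to Mt1 on the TPM scale in each library by group; each point is a liver, blue without and red with LPS, with the group mean and SD. LPS livers sit between 2.29 and 2.61 and control livers between 0.381 and 0.722, and the extract groups with LPS reach down to 0.903.

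After LPS no member was called with any extract. In LPS_EF, Mt1 was at 129, 141, 57.3, 92.0 and 315 CPM and Mt2A at 261, 150, 108, 170 and 280 CPM. In LPS_EF_PF, Mt1 was at 64.4, 113, 98.4 and 43.5 CPM and Mt2A at 150, 195, 190 and 83.2 CPM. In LPS_EF_RD, Mt1 was at 169, 94.7, 49.6, 433 and 86.5 CPM and Mt2A at 241, 155, 123, 417 and 129 CPM. The highest value of Mt1 and of Mt2A in LPS_EF and in LPS_EF_RD belonged to LPS_EF 7 and LPS_EF_RD 6, and all 3 groups overlapped the LPS group for both genes. Against LPS alone, Mt1 differed by 1.25 ± 0.48 in LPS_EF (adjusted p = 0.356), 0.37 ± 0.50 in LPS_EF_PF (adjusted p = 0.974) and 1.43 ± 0.49 in LPS_EF_RD (adjusted p = 0.437). Without the 4 libraries whose A2m goes against the label, Mt1 differed by 0.76 ± 0.35 in LPS_EF (adjusted p = 0.536) and 0.70 ± 0.35 in LPS_EF_RD (adjusted p = 0.716). Mt2A differed by 0.37 ± 0.49, 0.05 ± 0.52 and 0.51 ± 0.49, with the widest 95% interval reaching from -0.97 to 1.06 in LPS_EF_PF, and without the 4 libraries by 0.20 in LPS_EF and 0.12 in LPS_EF_RD. In each of these 3 comparisons 0 of 5 tested members were called by edgeR and 0 by DESeq2, where 0.108%, 0.0406% and 0.0135% of all genes passed. At an unadjusted p under 0.05 there was 1 member, Mt1, in LPS_EF and in LPS_EF_RD and 0 in LPS_EF_PF. LPS_EF_PF and LPS_EF_RD against LPS_EF also called 0 of 5 members with edgeR and 0 with DESeq2, with 0 at an unadjusted p under 0.05, where 0.00676% and 0% of all genes passed.

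Whether the extract and LPS effects add up was asked with an interaction term, the effect of LPS with extract minus its effect without. The term with EF contains the EF against control difference on which the genes were chosen, with a negative sign, so it is a description: -2.38 ± 0.70 for Mt2A and -0.81 ± 0.67 for Mt1, where 0.108% of all genes passed. It was -2.30 for Mt2A and -1.11 for Mt1 without the 4 libraries. The other terms share its control and LPS groups, so their direction is no independent observation. For Mt2A they were -2.10 ± 0.73 with EF_PF (adjusted p = 0.746) and -2.40 ± 0.72 with EF_RD (adjusted p = 0.334), and for Mt1 -1.63 ± 0.70 and -0.78 ± 0.69. With EF_RD the Mt2A term was -1.63 without the 4 libraries and -1.24 without EF_RD 1, and the Mt1 term -0.75 and -0.02. The members called were 0 of 5 with EF_PF and with EF_RD, by edgeR and by DESeq2, where 0.0812% and 0.128% of all genes passed. At an unadjusted p under 0.05 were Mt1 and Mt2A with EF_PF and Mt2A with EF_RD.

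**Figure D3:**
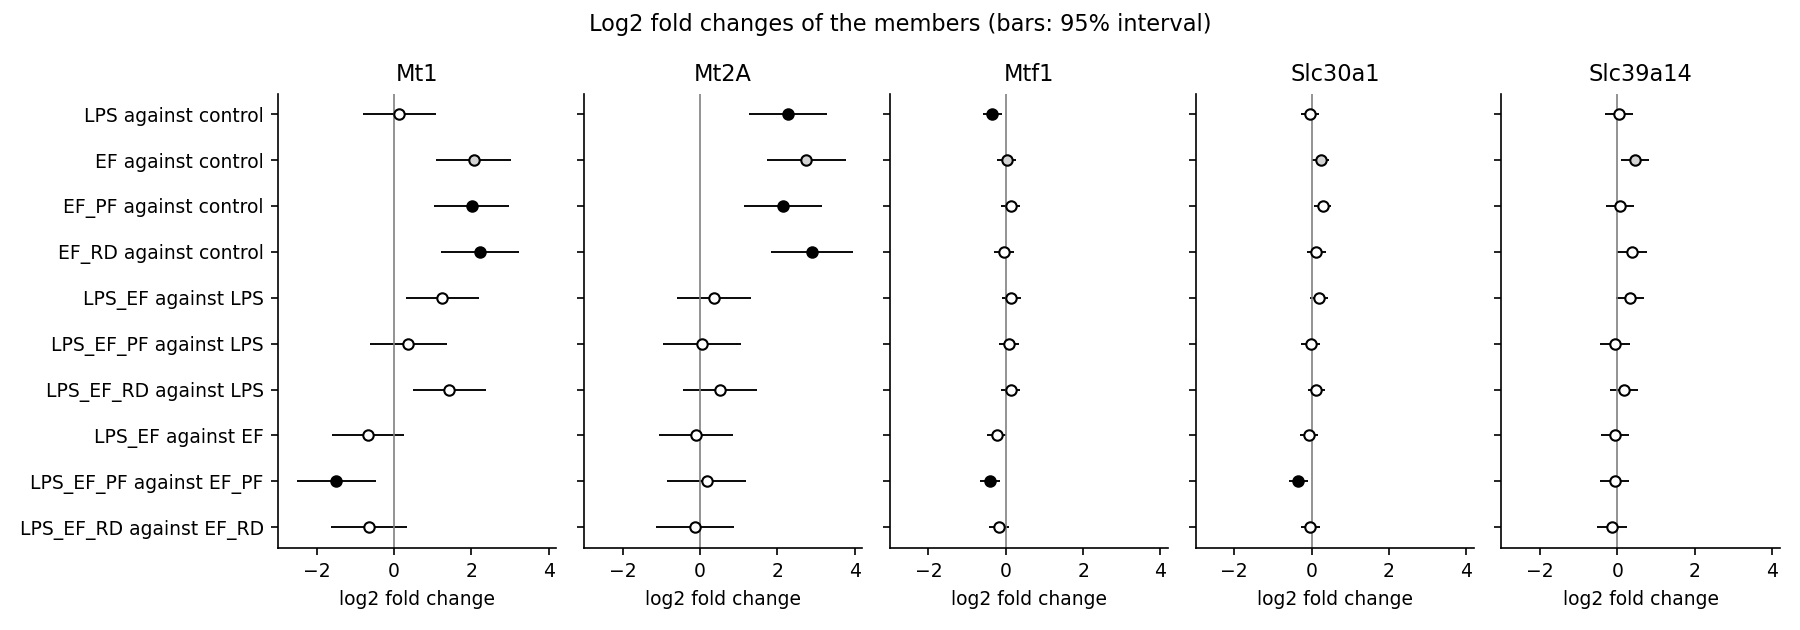
Log2 difference of each tested member in 10 comparisons, with 95% intervals as bars; filled points passed an adjusted p under 0.05, open points did not, and grey points are EF against control, for which no test is given. Mt1 and Mt2A are the members far from 0 with the extracts without LPS, and in LPS against control Mt2A lies far above 0 and Mt1 near it.

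With EF and PF in both groups, Mt1, Mtf1 and Slc30a1 were called lower with LPS. LPS_EF_PF against EF_PF called 3 of 5 members, all lower, against 36.5% of all genes. Mt1 fell by 1.5 ± 0.52 on the log2 scale (adjusted p = 0.0248), with all 4 LPS_EF_PF livers (43.5 to 113 CPM) under all 5 EF_PF livers (152 to 294 CPM), a separation that 37.1% of all genes showed. Mt2A differed by 0.17 (not called), at 154 ± 51.4 CPM (SD, n = 4) and 137 ± 52.5 CPM (n = 5). The Mt1 call was lost without LPS_EF_PF 1 (adjusted p = 0.0656) or LPS_EF_PF 6 (adjusted p = 0.0819). With total count scaling the edgeR calls of Mtf1 (adjusted p = 0.142) and Slc30a1 (adjusted p = 0.317) were lost. Here neutrophil and monocyte markers summed to 106 to 162 CPM with LPS and 4.48 to 10.2 CPM without, and hepatocyte markers to 137857 to 152168 CPM and 174650 to 207045 CPM.

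LPS_EF against EF and LPS_EF_RD against EF_RD called 0 of 5 members each with edgeR and 0 with DESeq2, with 0 at an unadjusted p under 0.05, where 29.1% and 23.5% of all genes passed. The first of these contains the EF group on which the genes were chosen. Without the 4 libraries whose A2m goes against the label, LPS_EF against EF called 2 members, where 39.1% of all genes passed: Mt1 at -0.97 ± 0.37 (adjusted p = 0.0392) and Mtf1 at -0.33 (adjusted p = 0.0253). In LPS_EF_RD against EF_RD the same omission called 0 members, where 31.7% of all genes passed, with Mt1 at -0.61 ± 0.40 (adjusted p = 0.250), Mt2A at 0.64 ± 0.47 (adjusted p = 0.311) and Mtf1 at -0.29 ± 0.13 (adjusted p = 0.0791). In that comparison single libraries decided the direction of Mt1: it was 0.11 without EF_RD 1 (adjusted p = 0.896) and -1.38 without LPS_EF_RD 6 (adjusted p = 0.0288). Without LPS_EF_RD 6, Mtf1 was at -0.33 (adjusted p = 0.0431).

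Mtf1 (chr5:142797340-142843896, plus strand, 11 exon blocks), the sensor that couples zinc to metallothionein transcription, was the lowest of the tested members and moved little. It was at 6.01, 4.75, 5.86, 7.09 and 5.87 CPM in control and at 4.75, 4.60, 4.74, 4.40 and 4.60 CPM in LPS livers. The groups touched without overlapping, with the highest LPS and the lowest control liver both at 4.75 CPM to 3 digits. Between these groups 25% of all genes did not overlap. Mtf1 fell by 0.36 ± 0.13 on the log2 scale with LPS (adjusted p = 0.0257) and by 0.42 ± 0.13 in LPS_EF_PF against EF_PF (adjusted p = 0.0140). Both calls depended on the scaling. With total counts in place of TMM the median of all genes moved from -0.00183 to 0.128 in LPS against control and from -0.0223 to 0.144 in LPS_EF_PF against EF_PF, and Mtf1 then had an adjusted p of 0.153 and 0.142. The first was lost without control 6 (adjusted p = 0.0837) and the second without LPS_EF_PF 3 (adjusted p = 0.0726). With extract against control Mtf1 differed by 0.02 ± 0.13 in EF, 0.13 ± 0.13 in EF_PF and -0.04 ± 0.13 in EF_RD.

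Slc30a1 (chr13:110677810-110681683, plus strand, 2 exon blocks), the zinc exporter ZnT1, was not called in any tested comparison of an extract group with control or with LPS alone. It was at 43.6, 47.0, 41.5, 43.8 and 52.6 CPM in control and at 54.2, 61.1, 58.8, 56.3 and 37.8 CPM in EF livers. EF 5, the liver highest in Mt1 and Mt2A of its group, was the lowest in Slc30a1, and EF_RD 1 (39.4 CPM) was likewise the lowest of EF_RD. With EF_PF Slc30a1 was 0.28 ± 0.12 above control (adjusted p = 0.289), and with EF_RD 0.13 ± 0.12 (adjusted p = 0.667). LPS alone left it at a log2 difference of -0.04 ± 0.12, with a 95% interval of -0.27 to 0.19. Its single call was in LPS_EF_PF against EF_PF, where it fell by 0.35 ± 0.13 (adjusted p = 0.0297), from 49.8 to 58.9 CPM to 39.9 to 49.5 CPM. That call was lost with total counts (adjusted p = 0.317) and without EF_PF 2, LPS_EF_PF 1, LPS_EF_PF 3 or LPS_EF_PF 6.

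Slc39a14 (chr15:51982872-52029841, minus strand, 12 exon blocks), the importer ZIP14, was not called in any comparison in which members were tested. In LPS livers it was at 270, 194, 163, 232 and 199 CPM and in control livers at 218, 210, 178, 206 and 210 CPM. The difference of 0.05 ± 0.19 had a 95% interval of -0.31 to 0.41. With EF alone Slc39a14 was at 275, 272, 275, 238 and 338 CPM. Every EF liver was above every control, a separation in either direction that 1.8% of all genes tested showed. The log2 difference was 0.45 ± 0.19, given without a test. The EF_PF livers, at 198, 202, 238, 199 and 234 CPM, overlapped the controls, and EF_PF lay 0.39 ± 0.19 below EF (adjusted p = 0.394). EF_RD 1 was at 467 CPM, and the other 3 EF_RD livers were at 206, 194 and 193 CPM. With LPS it averaged 266 ± 58.4 CPM in LPS_EF (SD, n = 5), 203 ± 18.9 CPM in LPS_EF_PF (n = 4) and 239 ± 57.8 CPM in LPS_EF_RD (n = 5). Leaving out the 4 libraries gave means of 281 ± 41.8 CPM in EF (n = 4), 198 ± 6.93 CPM in EF_RD (n = 3), 278 ± 59.7 CPM in LPS_EF (n = 4) and 215 ± 24.4 CPM in LPS_EF_RD (n = 4).

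**Figure D4:**
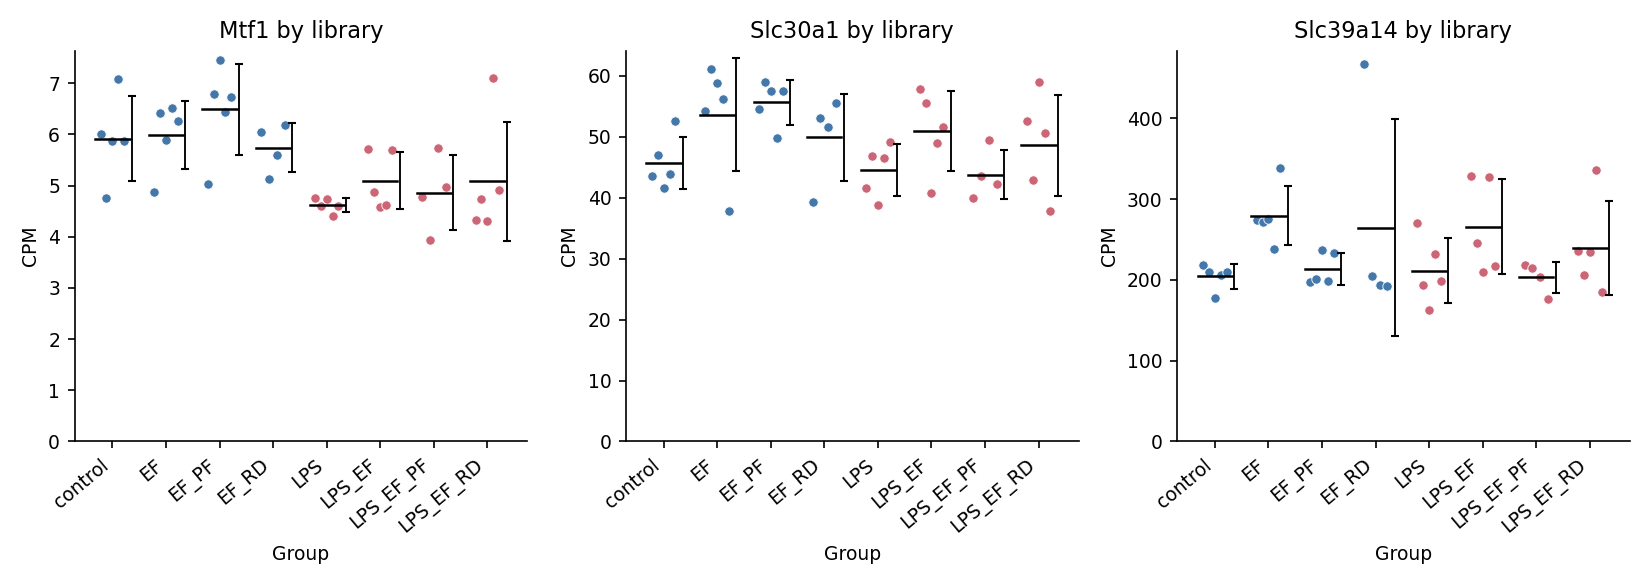
Level of Mtf1, Slc30a1 and Slc39a14 in each library, in CPM, by group; each point is a liver, blue without and red with LPS, with the group mean and SD. Mtf1 in the LPS group stays between 4.40 and 4.75 CPM, and EF_RD 1 stands alone for Slc39a14 at 467 CPM.

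Mt3, the metallothionein known from brain, was close to absent. It had 10 read pairs in all 38 libraries together, spread over 8 libraries, with a highest level of 0.441 TPM in EF_RD 1. The EF, LPS and LPS_EF_PF groups had 0, and a count of 0 allows up to 3 read pairs in a library, counting error only. No fold change is given. Mt4, its neighbour, had 80 read pairs in EF_RD 1 and 0 in the other 37 libraries. Krt5, a keratin of squamous epithelium, had 178 read pairs in EF_RD 1 and 0 elsewhere.

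The variation between livers within groups was compared gene by gene after the group mean was taken off log2 CPM, over 38 libraries all labelled as 1 batch. It is a description across libraries. Mt1 and Mt2A were most alike among the members, with Pearson's r of 0.897 and Spearman's rho of 0.932, and r was 0.880 without the 2 livers farthest in Mt2A, EF_RD 1 and EF 5. The genes most like Mt1, Mt2A aside, were Fbxo31 (r = 0.819), Map1lc3b (0.813), Mt1m (0.797), Smarcd2 (0.776) and Slc26a8 (0.769). Without the livers farthest in Mt1, LPS_EF_RD 6 and EF_RD 1, these were 0.737, 0.747, 0.732, 0.658 and 0.686. The genes most like Mt2A, Mt1 aside, were Mt1m (0.921), Tp53i13 (0.787), Nnmt (0.783), Map1lc3b (0.769) and Il1r1 (0.750). Without EF_RD 1 and EF 5 these were 0.881, 0.693, 0.702, 0.682 and 0.616. Mt1m is a single-exon metallothionein gene of chromosome 20 with a median of 6.51 TPM, and reads shared between it and Mt1 or Mt2A cannot be told apart. Slc39a14 ranked at place 20 of all genes for Mt2A, with r = 0.686, falling to 0.547 without EF_RD 1 and EF 5. Over all 38 libraries Mtf1 was only weakly alike, at 0.388 with Mt1 and 0.230 with Mt2A. In the 19 livers with LPS its r was 0.578 with Mt1 and 0.525 with Mt2A, and in the 19 without 0.141 and 0.0546. Without LPS_EF_RD 6 and EF_RD 1 its r of 0.388 with Mt1 became 0.200. Slc30a1 had r = -0.753 with Mt2A in the 19 livers without LPS and 0.448 in the 19 with LPS, and over all 38 its r of -0.302 became 0.00792 without EF_RD 1 and EF 5.

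The other zinc transporters were described from lists of the ZnT exporters (10 genes with Slc30a1) and ZIP importers (14 with Slc39a14). Slc30a8, Slc39a2 and Slc39a12 were too low to test, which leaves 19 besides the members. With LPS against control, 4 of 11 other importers were higher and 1 lower, and 0 of 8 other exporters were higher and 1 lower. Of all genes tested 36.8% were called there, so these counts do not set the transporters apart. The median log2 difference was 0.10 for these importers and -0.06 for these exporters, beside -0.00183 for all genes tested. Slc39a10 (ZIP10), a plasma membrane importer, rose from 5.18 ± 1.36 to 14.9 ± 2.01 CPM (SD, n = 5), a log2 difference of 1.52 ± 0.22 (adjusted p = 7.1e-06). Slc39a13 (ZIP13), an intracellular ZIP, rose by 0.68 ± 0.15 (adjusted p = 0.000519). Slc39a8 (ZIP8), the closest relative of ZIP14, fell by 0.66 ± 0.11 (adjusted p = 2.9e-05), from 77.4 ± 5.18 to 49 ± 6.27 CPM. Slc30a9 (ZnT9), a ZnT of mitochondria, fell by 0.19 ± 0.07 (adjusted p = 0.0227).

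Slc39a10, Slc39a13 and Slc30a9 were called in the same direction in all 4 comparisons of LPS against its matched group, and at each of these all genes tested passed at 23.5% to 36.8%. Slc39a10 differed by 1.09 ± 0.22 in LPS_EF against EF, 1.57 ± 0.23 in LPS_EF_PF against EF_PF and 0.72 ± 0.24 in LPS_EF_RD against EF_RD. Without the 4 libraries whose A2m goes against the label it differed by 1.36 in LPS_EF against EF and by 1.05 in LPS_EF_RD against EF_RD. The other importers called were 3 higher and 0 lower in LPS_EF against EF, and 3 higher and 1 lower in both other comparisons. The other exporters called were 2, 2 and 3, all lower. With the 4 libraries left out the counts were 2 importers higher, 1 lower and 2 exporters lower in LPS_EF against EF, and 3, 1 and 2 in LPS_EF_RD against EF_RD. In the 13 comparisons of extract treatments and interactions, 0 of 247 pairs of gene and comparison were called by edgeR, 29 (11.7%) were at an unadjusted p under 0.05, as were 9.29% of all genes over the same comparisons, and DESeq2 called 4.

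**Figure D5:**
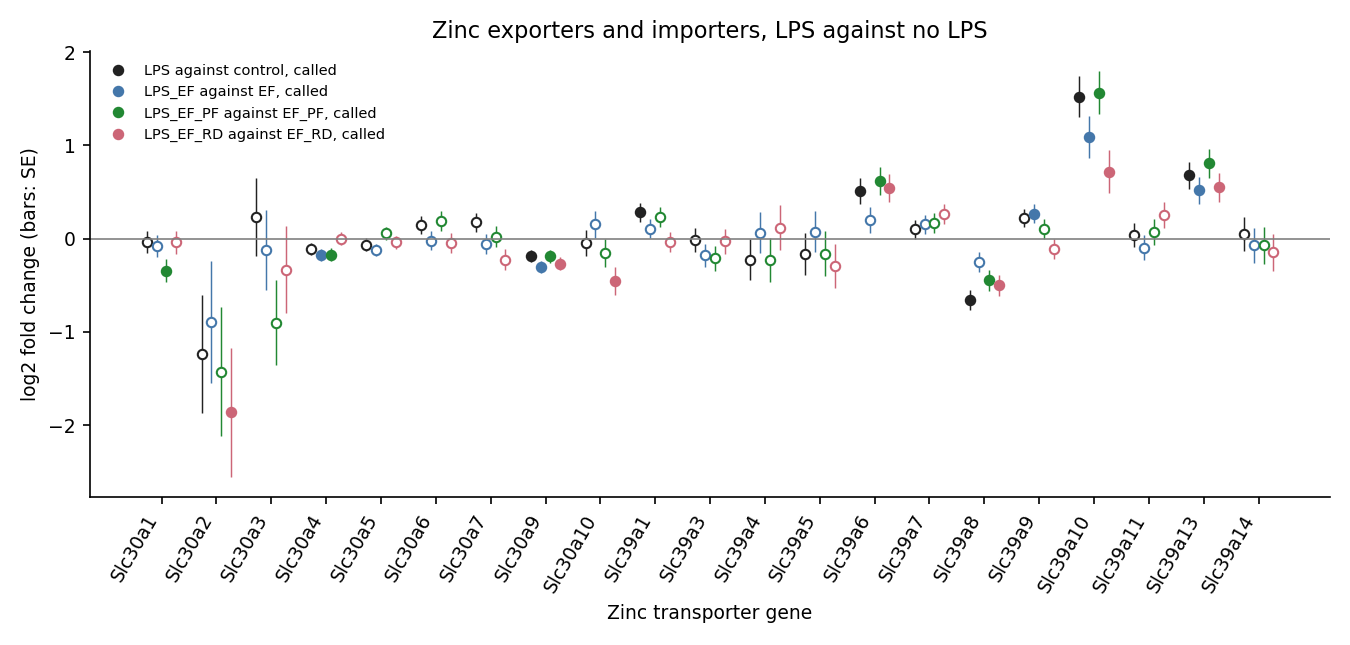
Log2 difference with LPS of the zinc exporters and importers, members included, in the 4 comparisons of LPS against its matched group; filled points passed an adjusted p under 0.05, open points did not, and bars are SE. Slc39a10 and Slc39a13 are above 0 and called in all 4, and Slc39a14 lies near 0.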

How the data were processed

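The deposited counts are raw numbers of read pairs by gene name. They were made with featureCounts 2.0.6 on the rn6 RefSeq annotation, with neither a strand setting nor an option for multi-mapping reads, per the file headers. STAR, RSEM and mRatBN7.2 appear in the submitters' processing notes without a role, so coordinates are those of the count table. The deposited TPM values, made by the authors, equal the counts scaled by gene length and library to within 1% in all 38 columns, for values of 1 TPM or more, with 0 columns of no known sample. No exon of a member overlaps one of another gene.

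Counts of all 38 libraries were fitted in R 4.3.3 with edgeR 4.0.16 (limma 3.58.1): filterByExpr with a minimum count of 10 and a minimum total of 15, TMM scaling, 1 mean per group, the quasi-likelihood test and 17 contrasts. A call is a Benjamini-Hochberg adjusted p under 0.05 over 14786 genes. Errors of log2 differences are SE from the test statistic, 95% intervals use 1.96 SE, and CPM are TMM-scaled. Replicate numbers in the titles are not said to mark shared animals or days, and p-values measure the spread between these livers. Alternatives were RLE and total count scaling, no filter, DESeq2 1.42.0, only the groups compared, a replicate block, and libraries left out.

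The members and the lists (6 pathway lists, 11 marker lists) were chosen with earlier results of these data known. Named are all members, at most 3 called genes per list and comparison with the largest change and at least 2 CPM, and the 5 genes most like Mt1 and Mt2A; 1 such gene is not reported here. A2m, Mt4 and Krt5 were chosen for the description of libraries after their values were seen. Promoter windows are RefSeq's on GRCr8.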

Additional observations from a re-analysis of the deposited data

Results flagged for a closer look

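Of 48 combinations of group and member level (or of the Mt2A to Mt1 ratio) examined for a single library far from the rest, 5 stood out, where chance gives about 1 in 20. EF_RD 1 was apart from its group for 4 of them: Mt1 at 580 CPM, Mt2A at 617 CPM, Slc39a14 at 467 CPM and the Mt2A to Mt1 ratio on the TPM scale at 1.08. The fifth was Mtf1 in LPS_EF_RD 6, at 7.11 CPM. Both libraries are among the 4 whose A2m level goes against the label, and the part of that in these levels was not tested. Mt4, which is in no comparison, had 80 read pairs in EF_RD 1 and 0 in all control livers.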

How the results depend on the processing

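Of 306 alternatives run on the number of members called in a comparison, or on Mt2A with EF, 282 stayed within 1.5 times the count or within the spread between livers and 24 moved. Comparisons with 0 members called are included, and there a count of 0 mostly stayed 0. The count moved in 9 of 10 single-library omissions in EF_PF against control and in 3 of 9 in EF_RD against control. It moved in 3 of 9 in LPS_EF_PF against EF_PF and in 1 of 10 in LPS against control. Of 1513 alternatives for single members, 1472 kept their side of the threshold and 4 gained a call. A call could be lost only in the 141 that concerned members with a call, and 37 of these lost it. Of the same 141, 0 changed sign. The other 1372 concerned members without a call or a test, and 110 of them changed sign, among them Slc30a1 in LPS against control (-0.04, and 0.10 with total count scaling). In LPS against control the members called went from 2 to 1 with total count scaling and with the replicate block, and ranged from 1 to 2 with a library left out. In EF_PF against control they went from 2 to 0 without the filter on low counts and ranged from 0 to 2 with a library left out. In EF_RD against control they went from 2 to 0 with only the groups compared and to 1 without the 4 libraries whose A2m goes against the label, and ranged from 0 to 2. In LPS_EF_PF against EF_PF they went from 3 to 1 with total count scaling and ranged from 1 to 3. In LPS_EF against EF they went from 0 to 2 without the 4 libraries, and in LPS_EF_RD against EF_RD they ranged from 0 to 2 with a library left out. Under the replicate block, Mtf1 in LPS against control had an adjusted p of 0.184. Mt2A with EF was at 2.51 to 2.75 across the other alternatives and 2.29 to 3.05 with a library left out. Same-numbered libraries of different groups had a median correlation of 0.0213 over 88 pairs, against -0.00327 over 543 other pairs, so the numbers were not taken to pair livers. Mtf1 rests on few reads, 550 to 720 per group, and Mt3 could not be tested at this depth.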

Other observations

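Other lists of genes known to respond with metallothioneins are given by counts of those called and the median log2 difference, beside -0.00183 for all genes tested with LPS against control, of which 36.8% were called. Of 12 tested genes of copper handling 3 were higher and 1 lower with LPS (median -0.09): Steap4, a metalloreductase, by 2.02 ± 0.29 (edgeR, adjusted p = 6.4e-06), Cp, the plasma copper ferroxidase ceruloplasmin, by 0.96 ± 0.19 (adjusted p = 0.000202), and the copper pump Atp7a by 0.47 ± 0.16 (adjusted p = 0.0199). Of 10 tested metal and oxidative stress genes 3 were higher and 3 lower (median -0.15), among the higher Hmox1, heme oxygenase 1, at 1.96 ± 0.52 (adjusted p = 0.00374) and Nqo1 at 1.0 ± 0.32. Of 11 glucocorticoid-responsive genes 1 was higher and 5 lower (median -0.73), among them Tat at -1.20 ± 0.41, Pck1 at -1.05 ± 0.28 and Errfi1 at -0.82 ± 0.19. Of 17 genes of the IL-6 and STAT3 pathway 10 were higher and 1 lower (median 1.06), led by A2m at 7.27 ± 0.97, Lbp at 4.41 ± 0.54 and Osmr, the oncostatin M receptor, at 2.61 ± 0.65.

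With EF against control the only call among these 4 lists was Osmr, at 2.60 ± 0.65 (edgeR, adjusted p = 0.0432), where 0.92% of all genes passed. Without the 4 libraries whose A2m goes against the label, EF 1 among them, Osmr was at 2.12 ± 0.51 (edgeR, adjusted p = 0.0412). That fit kept EF 5, where Lbp of the IL-6 and STAT3 list was at 334 CPM, against 102 to 160 CPM in control livers. In that fit 2 of the 17 IL-6 and STAT3 genes were called, where 0.84% of all genes passed. At an unadjusted p under 0.05 there were 7 IL-6 and STAT3 genes, 2 copper genes, 1 stress gene and 1 glucocorticoid-responsive gene, with 11.4% of all genes at that threshold. DESeq2 called 2, 0, 0 and 0, and 283 of all genes. The counts at the unadjusted threshold were 6, 1, 1 and 1 without the 4 libraries, given without a share of all genes.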
